A study of Mus musculus with 16 samples.

Results

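DNA methylation was described at 8 genes that carry the signal of the T cell receptor into the cell: *Lck*, *Fyn*, *Zap70*, *Txk*, *Lat*, *Lcp2*, *Prkcq* and *Ubash3a*. They were chosen by name, as 8 of 21755 protein-coding genes on the autosomes and the X chromosome in the GENCODE vM21 annotation of mm10. Each gene was followed from 5 kb upstream of its annotated 5′ end to its 3′ end in adjacent tiles of 500 bp, which gave 1123 of 2370021 tiles. A window of 1 kb on either side of each annotated transcription start site (TSS) gave a further 51 of 93196 windows. The methylation level of a tile or window in a library is the percentage of CpG calls that read as methylated.

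The 16 whole genome libraries came from spleens of C57BL/6J mice aged 6 to 8 weeks. B cells were CD43- and T cells were CD4+CD62L+, both sorted with magnetic beads from pooled mice, with no transgene or treatment in any group. Each cell type had 8 libraries, 4 from males and 4 from females. Of each 4, 2 were made by bisulphite (BS) treatment, which reads 5-methylcytosine (5mC) and 5-hydroxymethylcytosine (5hmC) alike as methylated. The other 2 were made after an oxidation step (oxBS), which leaves only 5mC to be read that way. Mice were pooled and the labels name no mouse, so the library is the replicate, a BS and an oxBS library may hold the same DNA, and p-values measure the spread between libraries, which may be technical. A level averages over all cells of a library, so a change in some of the cells cannot be told apart from a smaller change in all of them.

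The kinases Lck and Fyn phosphorylate the intracellular tails of the receptor complex, and Zap70 docks there and phosphorylates the scaffold proteins Lat and Lcp2 (also called SLP-76). From this scaffold the signal reaches phospholipase C gamma, which Tec family kinases such as Txk help to activate, and protein kinase C theta, the product of *Prkcq*, which leads to NF-kappa-B. Ubash3a is a regulator that dampens signalling from the receptor. B cells use related proteins for the same steps, and low methylation at a promoter or enhancer is a common mark of a regulatory region in use.

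The lineage of the sorted cells was read from the methylation of marker genes at their 5′ ends. In the 8 T cell markers, levels averaged between 15% and 20.3% in the T cell libraries and between 72.4% and 75.5% in the B cell libraries, and 6 of 8 were lower in T cells. *Cd28* was among those that did not pass, at 91.1% in T cells and 89.4% in B cells at its 5′ end. Another start site window of *Cd28*, 29558 bp from its 5′ end, was lower in T cells. It was at 2.8% in T cells and 41.1% in B cells without overlap (quasi-binomial adjusted p = 1.61e-05). In the 8 B cell markers, levels averaged between 60.3% and 67% in T cells and between 13.2% and 22.6% in B cells, and 7 of 8 were lower in B cells. Both CD8 genes were lower in the T cells, although the sort was for CD4. *Cd8a* had means of 60.5% in T cells and 86.7% in B cells, and *Cd8b1* had 34.9% and 90.3%. The part of this in the results was not tested. No marker of NK cells (3 genes), myeloid cells (4 genes) or erythroid cells (2 genes) passed in either direction. The myeloid marker *Lyz2* was under the limit of 20 points, at 65% in T cells and 46.6% in B cells. Its difference of 18.4 points was without overlap (quasi-binomial adjusted p = 0.00024). At the other markers of these lists the libraries overlapped. Libraries held between 123323834 and 170619848 calls at 94.5% to 95.6% of CpGs, or 5.78 to 7.99 calls per CpG, and their genome-wide levels were 78.5% to 81.5%. A member tile held a median of 6 CpGs and 49 calls per library, and a window at a member's 5′ end held between 115 and 741 calls per library.

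All 8 genes had at least 1 tile that was lower in T cells than in B cells, as did 36.1% of all genes, and 50.2% of genes with at least the 21 tested tiles of *Lat*, the member with fewest. Of 831 member tiles that could be tested, 213 (25.6%) were lower in T cells. Here and throughout, a tile counts as lower when its adjusted p is under 0.05 and the library means lie 20 percentage points or more apart. Among all 1283810 tested tiles, 2.58% were lower in T cells. In the other direction 16 (1.93%) were lower in B cells, where 1.35% of all tested tiles were. That count was 9 of 801 (1.12%) with BS libraries alone and 5 of 797 (0.627%) with oxBS libraries alone. Of all tiles, 0.55% and 0.492% were. The test was a quasi-binomial logistic model of methylated and unmethylated calls with sex and assay as covariates, and p-values were adjusted by the Benjamini-Hochberg method over all tested tiles. The libraries of the 2 cell types did not overlap in 187 of the 213 tiles and in 13 of the 16, as in 84.9% and 85.3% of all tiles called in each direction. The median T minus B difference was -7.13 points over the member tiles and -0.501 points over all tested tiles. With BS libraries alone 90 of 801 member tiles (11.2%) were lower in T cells, where 0.788% of all tiles were. With oxBS libraries alone 171 of 797 were (21.5%), and 1.55% of all tiles. With at least 40 calls per library 117 of 495 were (23.6%), and 2.51% of all tiles. The remaining 292 member tiles held too few CpGs or calls to be tested.

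The share of tiles lower in T cells differed between members. It was highest at *Lck*, with 26 of 50 tested tiles (52%), followed by *Lcp2* with 24 of 63 (38.1%), *Prkcq* with 62 of 172 (36%), *Lat* with 7 of 21 (33.3%) and *Ubash3a* with 17 of 67 (25.4%). *Zap70* had 9 of 44 (20.5%), *Txk* had 17 of 92 (18.5%) and *Fyn*, the longest gene, had 51 of 322 (15.8%). Of the 213 tiles, 168 lay within introns with no exon in the tile, as did 617 of the 831 tested tiles, 20 lay upstream of the gene and the others touched an exon. At 34 of the 213 an annotated gene other than the member overlapped the tile. Tiles lower in B cells were found in *Fyn* (7 of 322), *Ubash3a* (6 of 67), *Lcp2* (2 of 63) and *Prkcq* (1 of 172), beside 1.35% of all tested tiles.

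**Figure D1:**
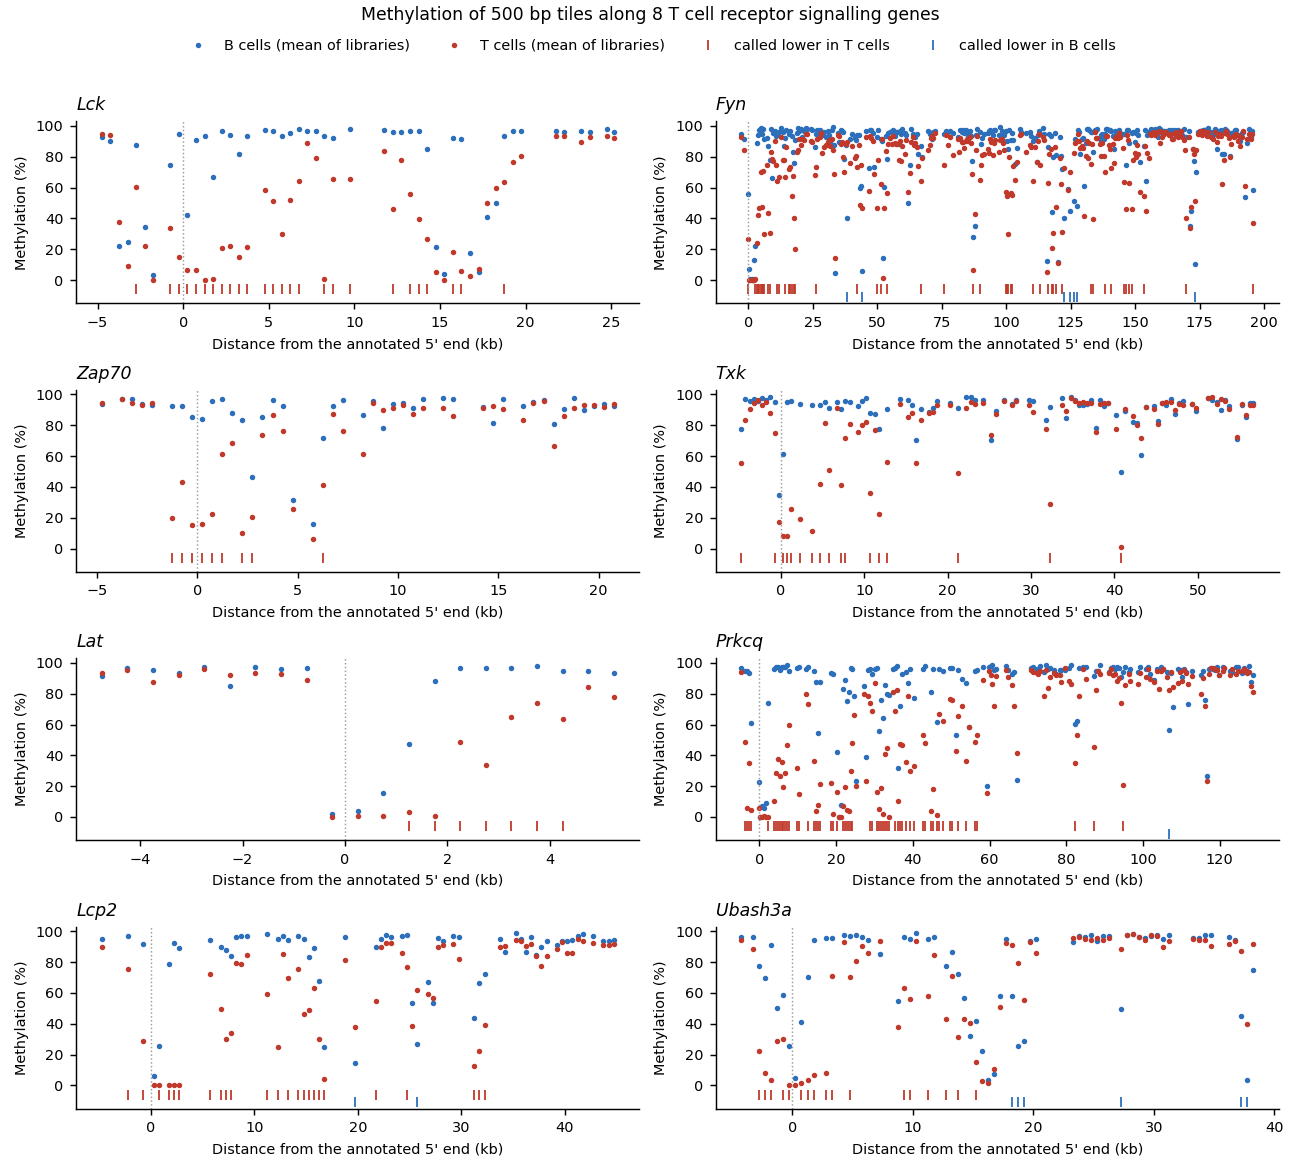
Mean methylation level (%, vertical axis) of each tested 500 bp tile against its distance from the annotated 5′ end (kb, horizontal axis) in B cells (blue points) and T cells (red points), with ticks under the points for tiles called lower in T cells (red) or in B cells (blue). The red points fall below the blue ones over 10 adjacent tiles at the start of *Lck*, over 7 tiles inside *Lat* and over many tiles of the first 60 kb of *Prkcq*, while all 9 called tiles of *Zap70* lie between 1500 bp upstream and 6500 bp downstream of its 5′ end.

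*Lck* encodes the Src family kinase that acts at the first step of receptor signalling. In GRCm38 it lies on the minus strand of chromosome 4 (129548344 to 129573641, ENSMUSG00000000409.14). The 200 bp below are the most CpG-rich stretch of its tile with the largest difference, which lies in an intron between 1000 and 1500 bp downstream of the 5′ end. They were read from the GRCm38 reference at chr4:129572398-129572597, minus strand, with each CpG in capitals.
*Lck* intron: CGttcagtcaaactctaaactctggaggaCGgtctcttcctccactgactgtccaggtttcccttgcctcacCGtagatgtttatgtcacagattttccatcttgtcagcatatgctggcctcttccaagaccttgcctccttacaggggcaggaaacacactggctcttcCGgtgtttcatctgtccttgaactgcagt
The 4 CpGs of this stretch were at 0% in the T cell calls and between 91.1% and 97.6% in the B cell calls, on 79 to 112 calls each.

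Over this whole *Lck* tile, all 8 T cell libraries were at 0%, while the B cell libraries ran from 88.5% to 97.9% with a median of 93.7%. The groups did not overlap, and the difference was -93.8 points (T cells 0% ± 0, B cells 93.8% ± 3.11, SD, n = 8 each, quasi-binomial adjusted p = 3.4e-09). The T cell libraries together held 534 calls there and 0 of them were methylated, which allows a level of up to 0.562%. The tile belonged to a run of 10 adjacent tiles lower in T cells, from 1000 bp upstream to 4000 bp downstream of the 5′ end, with a mean difference of -68.8 points. A further tile between 8000 and 8500 bp was at 0.65% in T cells and 93.3% in B cells.

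*Lck* is known to have a distal and a proximal promoter, and the windows around both annotated starts differed. At the 5′ end, T cell libraries were between 7.18% and 20.6% (median 12.2%) and B cell libraries between 59.8% and 81.1% (median 70.1%). The groups did not overlap, with a difference of -57.2 points (quasi-binomial adjusted p = 6.27e-07). At the start site 15269 bp downstream, T cell libraries were between 3.4% and 8.68% (median 6.37%) and B cell libraries between 38.3% and 52.9% (median 45.7%). That difference was -40 points (adjusted p = 9.72e-09 by the same model), again without overlap. Of the 7 annotated start sites of *Lck*, 4 had a window lower in T cells, and the 3 that did not, between 17182 and 17793 bp, were at 24% to 33.9% in T cells and 25.2% to 30% in B cells. Within the RefSeq promoters themselves, of 300 bp, the difference was smaller. The CpGs averaged 5.12% in T cells and 14.1% in B cells over 7 CpGs at the 5′ end, and 0.236% and 1.14% over 5 CpGs at the downstream site. Most of the difference of each window thus lay in the bases around the promoter. Only 1 of the 7 CpGs lay upstream of the 5′ end, and it carried most of both averages. It was at 34.9% in T cells and 93.3% in B cells, on 43 and 60 calls.

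*Fyn* encodes the second Src family kinase of this step, and lies on the plus strand of chromosome 10 (39368855 to 39565381, ENSMUSG00000019843.14). Its 5′ end was low in both cell types, at 2.31% to 5.01% (median 3.7%) in T cells and 7.49% to 14.6% (median 9.35%) in B cells. The groups did not overlap there, but the difference of -6.23 points was under the limit of 20 points for a call (quasi-binomial adjusted p = 0.000287), and within 500 bp of the start it was -19.1 points. The largest differences of *Fyn* lay inside the gene. The largest was in an intron 18000 to 18500 bp downstream, where T cell libraries were between 6.12% and 35.7% (median 21.5%) and B cell libraries between 83.8% and 96.1% (median 93%). That difference was -70.9 points without overlap (adjusted p = 2.7e-06 by the same model, n = 8 each). The longest run lower in T cells covered 8 tiles between 2500 and 6500 bp, just past the low region at the 5′ end, with a mean difference of -44.1 points. In T cells the tiles at 20% or less around the 5′ end reached to 3000 bp, and in B cells to 2500 bp. In the other direction *Fyn*, the longest gene, had 7 of 322 tested tiles, against 6 of 67 at *Ubash3a* and 1.35% of all tested tiles. At 38000 to 38500 bp T cells were at 89.7% ± 7.98 and B cells at 40% ± 6.94 (SD, n = 8 each, +49.8 points). At 44000 to 44500 bp T cells were at 46.5% ± 11.2 and B cells at 6.17% ± 3.58 (SD, n = 8 each).

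*Zap70* encodes the kinase that binds the phosphorylated receptor, and lies on the plus strand of chromosome 1 (36761798 to 36782818, ENSMUSG00000026117.10). Its promoter differed across every CpG, and is shown as the 250 bp upstream of the RefSeq start (GRCm38.p6, chr1:36761548-36761797, plus strand, each CpG in capitals).
*Zap70* promoter: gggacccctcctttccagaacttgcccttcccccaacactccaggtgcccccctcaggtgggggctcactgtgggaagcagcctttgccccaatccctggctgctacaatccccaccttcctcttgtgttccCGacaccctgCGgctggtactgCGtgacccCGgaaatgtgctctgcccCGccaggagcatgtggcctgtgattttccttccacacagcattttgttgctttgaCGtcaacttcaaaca
Of its 6 CpGs, the 5 farthest upstream were at 0% in T cells and between 85.7% and 95.6% in B cells, and the CpG nearest the gene was at 1.11% in T cells and 34.4% in B cells, on 61 to 90 calls per CpG and cell type.

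In the window at the 5′ end of *Zap70*, T cell libraries were between 16.8% and 29.9% (median 23.3%) and B cell libraries between 82.2% and 91.8% (median 87.8%). This was the largest difference at a 5′ end among the 8 genes, at -65.1 points without overlap (T cells 22.9% ± 5.02, B cells 88% ± 2.85, SD, n = 8 each, quasi-binomial adjusted p = 1.96e-10). It was part of a run of 6 tiles from 1500 bp upstream to 1500 bp downstream with a mean difference of -61.4 points. The tile with the largest difference was in an intron at 2000 to 2500 bp, where T cell libraries ran from 0% to 19% (median 8.01%) and B cell libraries from 72.2% to 90.3% (median 84.8%). The groups did not overlap, and the difference was -73.4 points (adjusted p = 2.34e-06 by the same model). At the RefSeq promoter 17186 bp downstream the CpGs were methylated in both cell types, with means of 96.4% in T cells and 95% in B cells. Of the 44 tested tiles of *Zap70*, 26 were at 80% or more in both cell types.

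*Txk* encodes a Tec family kinase of T cells, and lies on the minus strand of chromosome 5 (72695978 to 72752777, ENSMUSG00000054892.14). Its promoter is shown because its CpGs were at 29.5% or less in both cell types, unlike the tile just downstream (250 bp upstream of the RefSeq start, GRCm38.p6, chr5:72752778-72753027, minus strand, each CpG in capitals).
*Txk* promoter: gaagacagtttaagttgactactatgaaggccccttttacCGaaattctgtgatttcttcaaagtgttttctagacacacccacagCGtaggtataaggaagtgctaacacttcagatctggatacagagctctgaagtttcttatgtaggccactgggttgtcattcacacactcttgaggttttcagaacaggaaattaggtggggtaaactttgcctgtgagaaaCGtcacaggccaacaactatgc
The 3 CpGs were at 0% in T cells, on 92 to 98 calls each, and at 18.6%, 29.5% and 1.18% in B cells from the upstream to the downstream CpG.

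The window at the 5′ end of *Txk* was at 18.7% to 47% in T cells (median 27.2%) and at 61.6% to 84.3% in B cells (median 72%). The difference was -41.4 points without overlap (quasi-binomial adjusted p = 1.51e-05, n = 8 each). The largest difference was 500 to 1000 bp downstream, in a tile that touches an annotated exon, with T cell libraries at 0% to 16.7% (median 8.85%) and the 7 B cell libraries with enough calls at 86.1% to 100% (median 96.9%). It was -86.8 points, again without overlap (adjusted p = 2.32e-07 by the same model, n = 8 T and 7 B cell libraries). Of the 17 tiles lower in T cells 12 lay in the first 15 kb downstream, where 20 were tested, 2 lay upstream, and 3 of 62 lay beyond. The first 3 formed a run from 0 to 1500 bp, and others in the first 15 kb included those at 2000 to 2500 bp and 3500 to 4000 bp, with T minus B differences of -74.6 and -81.8 points. Among the 3 beyond, at 32000 to 32500 bp T cells were at 29% ± 11.5 and B cells at 91.6% ± 3.36, and at 40500 to 41000 bp T cells were at 1.11% ± 1.72 and B cells at 49.6% ± 7.99 (SD).

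*Lat* encodes the membrane scaffold that Zap70 phosphorylates, and lies on the minus strand of chromosome 7 (126363824 to 126369570, ENSMUSG00000030742.7). The stretch below is from its tile with the largest difference, 1500 to 2000 bp downstream, which holds coding exon sequence and overlaps the microRNA gene *Mir7058* (GRCm38, chr7:126367619-126367818, minus strand, each CpG in capitals).
*Lat* gene body: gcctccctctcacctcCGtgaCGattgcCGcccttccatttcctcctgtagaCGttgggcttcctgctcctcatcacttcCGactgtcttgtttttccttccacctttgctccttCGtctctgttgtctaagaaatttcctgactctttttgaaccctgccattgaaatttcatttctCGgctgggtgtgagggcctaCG
Its 8 CpGs were between 0% and 3.17% in T cells and between 64.5% and 100% in B cells, on 63 to 108 calls each.

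Over this *Lat* tile T cell libraries were between 0% and 0.8% (median 0.331%) and B cell libraries between 79.7% and 94.5% (median 88.6%). The difference was -87.9 points without overlap (quasi-binomial adjusted p = 1.56e-09, n = 8 each). At the 5′ end itself no difference was called, with T cell libraries at 11.6% to 28.6% (median 23.7%) and B cell libraries at 17.5% to 33.4% (median 25.7%). The groups overlapped, and the difference was -3.7 points (adjusted p = 0.515 by the same model, exact two-sided permutation p = 0.247, n = 8 each), while a window of 2 kb on either side differed by -21.3 points. At the annotated start 230 bp downstream, T cells were at 12.2% ± 3.59 and B cells at 20.5% ± 3.62 (SD, n = 8 each) without overlap. That difference of -8.37 points was under the limit for a call (quasi-binomial adjusted p = 0.00871). The tile just downstream of the 5′ end was at 0.439% in T cells and 3.9% in B cells. Tiles at 20% or less ran from 500 bp upstream to 2000 bp downstream in T cells, and to 1000 bp downstream in B cells. All 7 tiles of *Lat* that were lower in T cells formed 1 run from 1000 to 4500 bp, with a mean difference of -47.2 points. No window of its 6 annotated start sites was called, and none of its 10 tested upstream tiles, which lie in the neighbouring gene *Spns1*.

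*Lcp2* encodes the cytosolic adaptor SLP-76 and lies on the plus strand of chromosome 11 (34046920 to 34092295, ENSMUSG00000002699.13). Its RefSeq promoter holds no CpG. The stretch below comes from its tile with the largest difference, in an intron 2000 to 2500 bp downstream, where the annotated gene *4930469K13Rik* overlaps (GRCm38, chr11:34048923-34049122, plus strand, each CpG in capitals).
*Lcp2* intron: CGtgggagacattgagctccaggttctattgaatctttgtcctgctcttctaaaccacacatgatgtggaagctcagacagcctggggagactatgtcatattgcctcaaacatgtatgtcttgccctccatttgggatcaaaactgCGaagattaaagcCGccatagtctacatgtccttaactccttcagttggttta
Its 3 CpGs were at 0%, 0% and 1.25% in T cells and at 78.4%, 93.2% and 95.9% in B cells, on 51 to 80 calls each.

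Over this *Lcp2* tile 7 T cell libraries were at 0% and 1 was at 3.7%, while B cell libraries were between 84% and 97.5% (median 94.8%). The difference was -92 points without overlap (quasi-binomial adjusted p = 1.46e-07, n = 8 each), within a run of 3 tiles between 1500 and 3000 bp whose mean difference was -86.7 points. The window at the 5′ end was at 0.769% to 10.1% in T cells (median 4.87%) and 16.9% to 36.4% in B cells (median 29.1%). That difference was -24 points without overlap (adjusted p = 1.78e-05 by the same model). It depended on the window, at -5.87 points within 500 bp of the start and -39.7 points within 2 kb. A start site 31257 bp downstream was also lower in T cells, at 23% ± 7.15 against 61.9% ± 5.44 (SD, n = 8 each), and the one 40084 bp downstream was high in both, at 88.8% ± 3.18 and 93% ± 3.24. At 25500 to 26000 bp the direction turned, with T cells at 61.7% ± 10.6 and B cells at 27.1% ± 8.04 (SD, +34.6 points, adjusted p = 0.00108 by the same model).

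*Prkcq* encodes protein kinase C theta, and lies on the plus strand of chromosome 2 (11172108 to 11301222, ENSMUSG00000026778.13). The stretch below is from its tile with the largest difference, in an intron 19000 to 19500 bp downstream, where the annotated gene *Gm37520* overlaps (GRCm38, chr2:11191165-11191364, plus strand, each CpG in capitals).
*Prkcq* intron: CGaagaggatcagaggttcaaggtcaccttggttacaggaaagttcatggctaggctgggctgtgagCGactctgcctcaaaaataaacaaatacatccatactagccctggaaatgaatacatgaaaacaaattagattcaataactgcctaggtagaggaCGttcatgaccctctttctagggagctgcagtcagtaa
Its 3 CpGs were at 0%, 5.17% and 0% in T cells and at 92%, 94.8% and 91.4% in B cells, on 58 to 75 calls each.

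Over this *Prkcq* tile T cell libraries were between 0% and 5.97% (median 1%) and B cell libraries between 85.7% and 98% (median 94.2%). The difference was -90.8 points without overlap (quasi-binomial adjusted p = 4.03e-08, n = 8 each). The promoter of *Prkcq* holds 37 CpGs, more than 94.4% of RefSeq promoters, and its 5′ end was low in both cell types. There T cell libraries were at 0.196% to 2.38% (median 1.01%) and B cell libraries at 3.22% to 10.4% (median 6.29%), a difference of -5.47 points that was under the limit for a call although the groups did not overlap (adjusted p = 0.000174 by the same model). *Prkcq* nevertheless had the most tiles lower in T cells of the 8 genes, and 55 of the 62 lay in the first 60 kb downstream, where 77 tiles were tested, with 4 among the 6 tested upstream tiles and 3 among the 89 beyond 60 kb. Its longest runs covered 9 tiles between 3500 and 8000 bp (mean difference -64.1 points), 7 tiles between 30500 and 34000 bp (-58.6 points) and 6 tiles between 21500 and 24500 bp (-68 points). Of its tested tiles, 26 were at 20% or less in T cells alone, 6 in both cell types and 0 in B cells alone.

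*Ubash3a*, the regulator, lies on the plus strand of chromosome 17 (31207873 to 31246892, ENSMUSG00000042345.15). Its largest difference was upstream of the gene, 2000 to 1500 bp before the 5′ end, where T cell libraries were between 0% and 8.55% (median 1.8%) and B cell libraries between 83% and 95.8% (median 91.8%). The difference was -87.7 points without overlap (quasi-binomial adjusted p = 2.63e-09, n = 8 each). At the 5′ end T cell libraries were at 1.07% to 10.6% (median 7.68%) and B cell libraries at 21.5% to 35.4% (median 29.8%), a difference of -21.5 points without overlap (adjusted p = 4.1e-05 by the same model). Within 500 bp of the start it was -10.5 points and within 2 kb -51.4 points. Of its 9 annotated start sites, 5 had a window lower in T cells, including one 11728 bp downstream at 67.7% ± 9.28 in T cells and 94.1% ± 1.34 in B cells (SD, n = 8 each). The gene also carried 6 tiles lower in B cells, of which 3 were adjacent between 18000 and 19500 bp. In the middle of these T cells were at 79.6% ± 10.9 and B cells at 25.7% ± 8.02, and in an annotated UTR, at 37500 to 38000 bp, T cells were at 40% ± 6.34 and B cells at 3.44% ± 2.69 (SD, n = 8 each).

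Across the 51 start site windows of the 8 genes, all tested, 17 (33.3%) were lower in T cells, where 1.19% of all 91683 tested windows were, and 0 were lower in B cells, where 0.615% were. The median difference was -7.92 points over the member windows and -0.628 points over all windows. With windows of 500 bp on either side 10 were lower in T cells, and with 2 kb 27, but the share of all windows was not counted at these sizes. Windows of 1 gene can share CpGs, so genes were counted as well, with 1 kb on either side. It was 5 of 8 genes (*Lck*, *Zap70*, *Lcp2*, *Txk* and *Ubash3a*), where 3.23% of 21136 genes had a window lower in T cells. *Fyn*, *Lat* and *Prkcq* had none. At the 5′ end, 7 of 8 genes had T and B cell libraries that did not overlap, and *Lat* was the exception. Each of the 7 had an exact two-sided permutation p of 0.000155, the smallest that 8 against 8 libraries can give. That p takes the libraries as independent, although a BS and an oxBS library may hold the same DNA. Over all genes, 2.35% had such windows lower in T cells without overlap and 1.26% lower in B cells. The 7 include *Fyn* and *Prkcq*, whose differences were small. In order of the mean T cell level at the 5′ end the genes were *Prkcq* (1.12% ± 0.663), *Fyn* (3.66% ± 0.795), *Lcp2* (4.66% ± 3.05), *Ubash3a* (6.81% ± 3.86), *Lck* (13% ± 5.57), *Lat* (22% ± 6), *Zap70* (22.9% ± 5.02) and *Txk* (31% ± 12.1, SD, n = 8 each). The ranges of mean ± SD of neighbours in this order met or overlapped except between *Prkcq* and *Fyn*. The T cell libraries of these 2 genes still overlapped, at 0.196% to 2.38% and 2.31% to 5.01%.

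**Figure D2:**
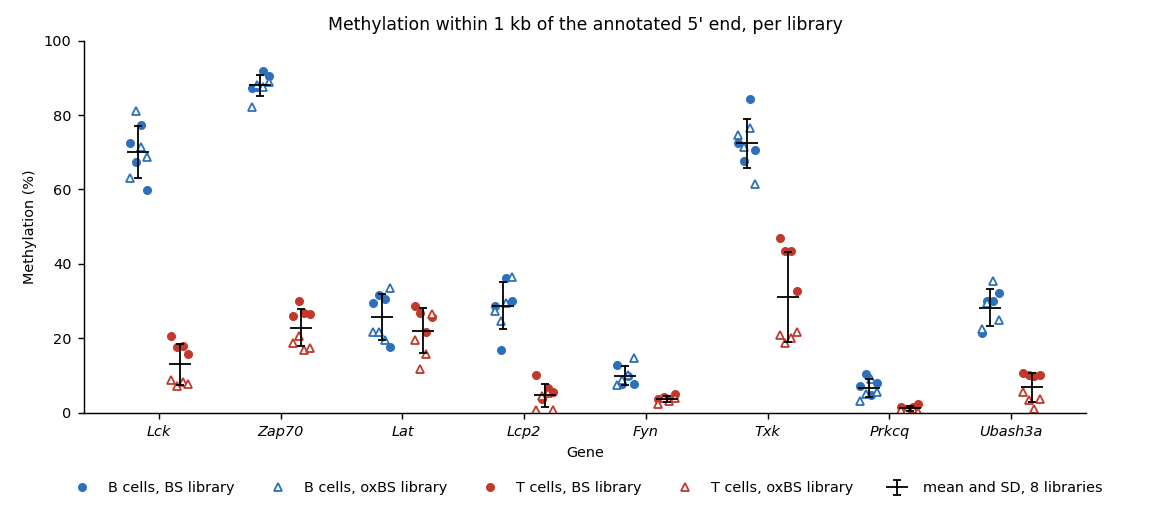
Methylation level (%, vertical axis) within 1 kb of the annotated 5′ end of each gene (horizontal axis), with 1 point per library, B cells in blue and T cells in red, BS as filled circles and oxBS as open triangles, and bars for the mean and SD of 8 libraries. The cell types lie far apart at *Lck*, *Zap70* and *Txk*, are separated at low levels at *Lcp2*, *Ubash3a*, *Fyn* and *Prkcq*, and overlap at *Lat*.

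Motifs of transcription factors were counted in the RefSeq promoters of the 8 genes, 12 in all, each of 250 bp before and 50 bp after the start, searched on both strands. The ETS core AGGAAG was in 8 of 12, and in 35.4% of all 32851 RefSeq promoters. The RUNX motif TGTGGT was in 4 (16.8% of all), the TCF/LEF motif CTTTGA in 4 (16%), the GATA motif AGATAA in 3 (11.2%), the E-box CAGCTG in 1 (16.3%) and the SP motif GGGCGG in 3 (35.7%). The *Zap70* and *Txk* promoters at the 5′ end each held the ETS and TCF/LEF letters. None of these motifs is contained in another, each was searched on its own, and a match describes letters and not a bound site.

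BS and oxBS libraries read differently at these genes in T cells. Over the whole interval of each gene, from 5 kb upstream to the 3′ end, BS was above oxBS in T cells at 8 of 8 members, where 5.59% of 21522 genes were, by the same kind of model within T cells (terms for assay and sex, adjusted p under 0.05 over all genes). With oxBS above BS there were 0 members, and 0.00929% of genes. The median difference was 9.04 points over the members and 0.961 points over all genes. In B cells 0 of 8 members passed, and 0 of 21520 genes, with 0 members and 812 genes at an unadjusted p under 0.05 and a median of -0.0871 points over the members. The test over whole intervals was added after the data had been seen. In T cells the genome-wide level also split by assay without overlap, at 79.5% to 79.7% by BS and 78.5% to 78.9% by oxBS. So did the share of mitochondrial calls read as methylated, a measure of failed conversion, at 0.128% to 0.188% and 0.0549% to 0.0812%. In B cells both overlapped between assays. The part of these in the result was not tested. In the 802 member tiles tested in T cells the test fixed for tiles called 0, as in all 1251368 tiles (0%), with a lowest member adjusted p of 0.817, while 390 (48.6%) had an unadjusted p under 0.05 against 6.11% of all tiles. With limma on the log2 ratio of calls, 48 member tiles passed, all with BS above oxBS, where 0.212% of all tiles passed. In B cells 0 of 799 member tiles passed by either method (0% of all tiles by each), with 10 member tiles (1.25%) at an unadjusted p under 0.05 in the quasi-binomial model and 1.17% of all tiles.

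Among the 8 genes, with all libraries, the interval of *Lck* showed the largest gap between assays. In T cells its 4 BS libraries were at 48.1%, 49.1%, 51.2% and 52.7% and its 4 oxBS libraries at 34.2%, 37.6%, 38.3% and 38.6%, a difference of 13.1 points (quasi-binomial adjusted p = 0.0182). In B cells both assays averaged 71.3%, with BS at 69.2% to 73.6% and oxBS at 67.3% to 73.7%, so the assays overlapped. The next was *Lcp2*, with T cell BS libraries at 69.8%, 71.3%, 71.4% and 71.8% and oxBS libraries at 56.6%, 57.4%, 58.3% and 60.8%, a difference of 12.8 points (adjusted p = 0.00556 by the same model). *Lck* fell behind *Lcp2* without T cell replicate 13 (12.3 against 12.6 points), 14 (12.1 against 12.8) or 6 (13.2 against 13.7). It stayed ahead without any other library. Without the tiles called lower in T cells it was also behind (8.34 against 11.8). *Prkcq* followed, with BS at 66.6%, 67.5%, 67.7% and 68.9% and oxBS at 55.5%, 55.7%, 56.5% and 56.6% (11.6 points, adjusted p = 0.00341 by the same model). The difference was 9.14 points at *Fyn* (80.1% ± 0.649 against 71% ± 0.449), 8.94 at *Lat* (63.7% ± 1.32 against 54.8% ± 3.36) and 8.7 at *Ubash3a* (66.4% ± 1.72 against 57.7% ± 0.848, SD, n = 4 each). It was smallest at *Txk* (7.13 points, 82.1% ± 0.103 against 74.9% ± 0.994) and *Zap70* (5.97 points, 77.2% ± 1.26 against 71.3% ± 0.79, SD, n = 4 each). In all 8 genes the lowest T cell BS library was above the highest T cell oxBS library, and in all 8 the B cell assays overlapped. Over all genes, BS libraries lay above oxBS libraries without overlap at 15.5% in T cells and 0.651% in B cells.

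The difference between assays itself differed between T and B cells at 7 of 8 members, where 4.03% of 21531 genes did (interaction of cell type and assay, adjusted p under 0.05). The exception was *Zap70*, with an adjusted p of 0.124 in that quasi-binomial model. Put another way, the T minus B difference of an interval was larger in oxBS than in BS libraries at all 8 genes. Examples are -34.2 against -21 points at *Lck* and -13.7 against -4.33 points at *Fyn*. This follows from the gaps between assays within each cell type and is no further result. How many of the 8 passed within T cells changed when 1 T cell library was left out, whichever of the 8 it was. Then 4 or 5 of 8 passed (4 without either female oxBS replicate 16 or male oxBS replicate 8, 5 without any other), with *Fyn*, *Lcp2*, *Prkcq* and *Txk* passing each time and *Lat* not once. *Lck* lost its call in 7 of these 8 fits and kept it only without female BS replicate 13. The share of all genes fell as well, from 5.59% to between 1.77% and 2.11%. All 8 members kept an unadjusted p under 0.05 each time, as did 16.6% to 17.4% of all genes. The difference at *Lck* was between 12.1 and 13.8 points, while the highest adjusted p of a member was between 0.0744 and 0.131 in these quasi-binomial fits. Without the tiles called lower in T cells 6 of 8 passed, *Lat* and *Lck* being lost, and 3.97% of all genes.

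**Figure D3:**
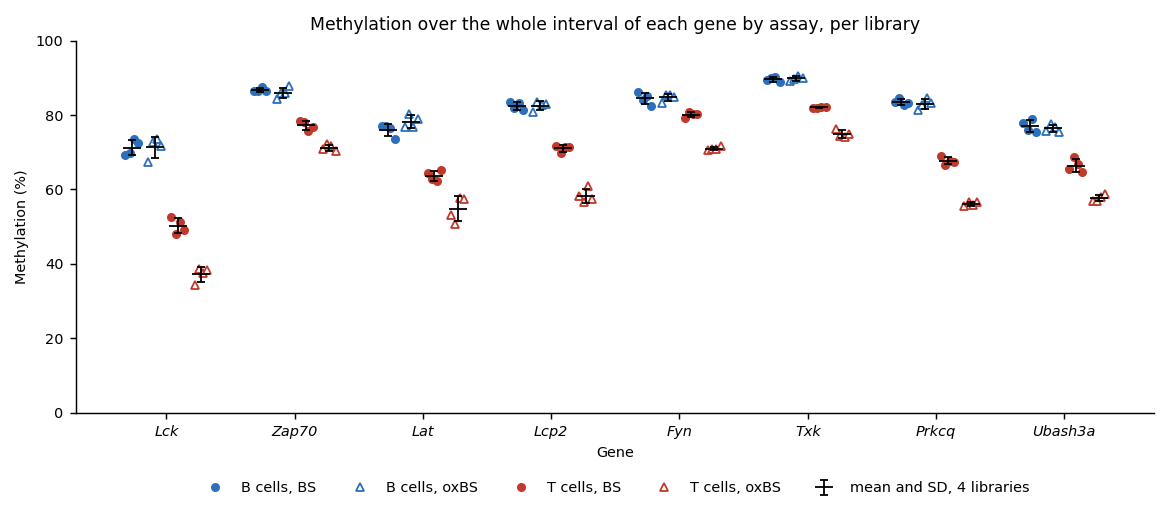
Methylation level (%, vertical axis) over the whole interval of each gene (horizontal axis) in each library, with BS as filled circles and oxBS as open triangles, B cells in blue and T cells in red, and bars for the mean and SD of 4 libraries. The 4 red circles sit above the 4 red triangles at every gene, by 13.1 points at *Lck* and 5.97 points at *Zap70*, while the blue circles and triangles overlap.

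The gap between assays in T cells was spread over the genes. BS was above oxBS in 93.6% of the member tiles in T cells, against 66.2% of all tiles, and in 51.1% of the member tiles in B cells, against 49.3% of all. By gene the share in T cells ran from 84.7% at *Lcp2* (50 of 59 tiles) to 97.6% at *Zap70* (40 of 41). The gap reached 20 points or more in 109 member tiles in T cells (13.6%, against 0.805% of all tiles) and in 0 in B cells (0%, against 0.0109% of all tiles). In tiles lower in T cells than in B cells the median gap was 16 points (205 tiles), in tiles not called 7.09 points (582 tiles) and in tiles lower in B cells 11.3 points (15 tiles). The same medians over all genes were 9.17, 1.06 and 2.9 points. The calls used the same T cell libraries, and a low oxBS level helps a tile to be called lower in T cells. These medians are therefore not independent of the calls. At 42500 to 43000 bp in *Prkcq* T cells were at 70.5% by BS (60.5% to 77.4%, n = 4) and 30.7% by oxBS (15.4% to 48.3%, n = 3), and B cells at 97.9% and 94%. At 1000 to 500 bp upstream of *Txk* T cells were at 92.7% by BS (88.7% to 95.9%) and 57.2% by oxBS (53.1% to 61.1%, n = 4 each), and B cells at 96% and 94.4%. At 5000 to 5500 bp in *Lck* T cells were at 69.1% by BS (62.8% to 75.3%) and 33.7% by oxBS (28.9% to 44.2%, n = 4 each), and B cells at 96.9% and 96.7%. These tiles were picked as the widest gap of each gene, so they describe and test nothing.

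**Figure D4:**
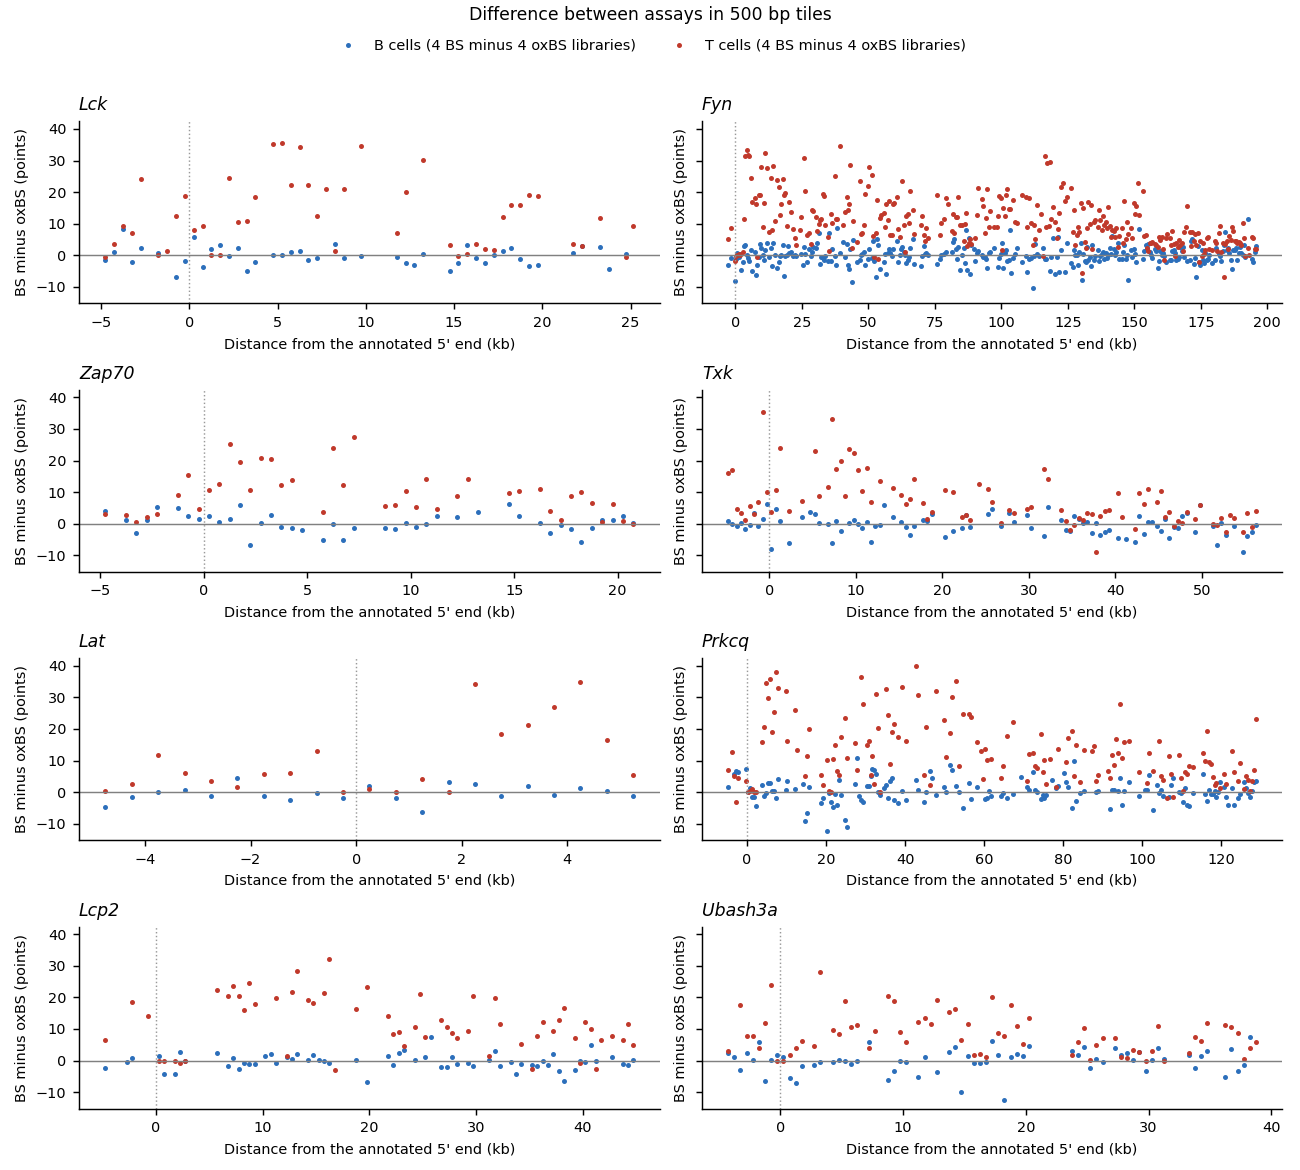
BS minus oxBS level (percentage points, vertical axis) of each 500 bp tile against its distance from the annotated 5′ end (kb, horizontal axis) in B cells (blue) and T cells (red), each point the mean of the BS libraries minus the mean of the oxBS libraries. The blue points scatter about 0 and the red points lie above 0 along most of each gene, in 93.6% of tiles over the 8 genes, up to 39.8 points in *Prkcq*.

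No difference between male and female libraries passed at a member tile. Of 838 member tiles, 0 passed by the same quasi-binomial model (22, or 2.63%, at an unadjusted p under 0.05, against 3.21% of all tiles), where 0.13% of 1284241 tiles passed. The difference between B and T cells did not pass a test of difference by sex in any of 823 member tiles (13, or 1.58%, at an unadjusted p under 0.05, against 2.77% of all tiles), nor in any of all 1267853 tiles (0%).

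Among 36 other genes of receptor signalling, all with a tested window, 19 (52.8%) had a start site window lower in T cells and 1 (2.78%) had one lower in B cells, where 3.23% and 1.61% of all genes did. The list is not independent of the marker genes above, as it shares *Cd3d*, *Cd3e*, *Cd3g*, *Cd28* and *Themis* with them. It also holds *Cd4*, a gene of the sort, and was chosen with earlier results of these data known. The largest differences were at the receptor chains *Cd3d* (4.66% ± 3.06 in T cells and 94.3% ± 1.53 in B cells, SD, n = 8 each) and *Cd3e* (2.7% ± 1.35 and 87.5% ± 1.77) and at *Themis*, needed for thymocyte selection (0.309% ± 0.572 and 87.9% ± 5.11). The adaptor *Grap2* had the window lower in B cells, with T cells at 87.9% ± 5.49 and B cells at 63% ± 7.21 in a window 50889 bp from its 5′ end. Most called tiles of *Grap2* went the other way, with 64 of 132 lower in T cells and 4 lower in B cells, and its 5′ window differed by -13.7 points. The tiles of these genes were lower in T cells in 624 of 3245 (19.2%) and lower in B cells in 86 (2.65%), where 2.58% and 1.35% of all tested tiles were.

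A relative from the same protein family or with the like role, used by B cells or expressed broadly, was set beside each member, namely *Blk* for *Lck*, *Lyn* for *Fyn*, *Syk* for *Zap70*, *Lat2* for *Lat*, *Blnk* for *Lcp2*, *Btk* for *Txk*, *Prkcb* for *Prkcq* and *Ubash3b* for *Ubash3a*. Of these 8 relatives, 4 had a window lower in B cells (*Blk*, *Lat2*, *Blnk* and *Btk*), and 1, *Ubash3b*, had one lower in T cells, where 1.61% and 3.23% of all genes did. The libraries overlapped at the 5′ end of *Btk*, at 38.9% to 75.9% in T cells and 4.08% to 60.4% in B cells. This gene lies on the X chromosome, and its levels were not split by sex here. At the 5′ end the adaptors *Lcp2* and *Blnk* went in opposite directions, with *Lcp2* at 4.66% in T cells and 28.7% in B cells and *Blnk* at 58% ± 5.25 and 12.5% ± 3.69 (SD, n = 8 each). For the other adaptor pair, *Lat2* was at 64.3% ± 4.67 in T cells and 41.4% ± 4.67 in B cells, while *Lat* was at 22% and 25.7%, with overlapping libraries and an adjusted p of 0.515 in the quasi-binomial model. The T minus B difference of *Zap70* was -65.1 points, whereas *Syk* was near 0 in both, at 2.43% ± 0.626 in T cells and 0.624% ± 0.407 in B cells. The *Syk* difference of 1.81 points was without overlap (adjusted p = 0.00105 by the same model) and under the 20 points of a call. Of 1195 tested tiles of the relatives, 42 (3.51%) were lower in T cells and 82 (6.86%) lower in B cells, beside 2.58% and 1.35% of all tested tiles.

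The 5 genes whose 5′ window was most like that of *Zap70* over the 16 libraries, among 20904 ranked, were *Trat1* (root mean square difference 4.35 points), *Hdac7* (4.99), *Fasl* (5.21), *Ccr8* (5.24) and *Acp5* (7.55). *Hdac7* was at 19.8% in T cells and 92% in B cells, and *Trat1*, a receptor-associated adaptor, at 26.5% and 87.8%.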

How the data were processed

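DNA was taken from CD43- B cells and CD4+CD62L+ T cells of C57BL/6J mouse spleens, and 16 whole genome libraries were analysed. The submitters' processing notes name Trim Galore 0.6.0, Bismark 0.20.0 and SAMtools 1.3.1, and the authors aligned to mm10 using Bismark and filtered alignments by mapping quality. The values the authors deposited are counts of unmethylated and of methylated calls per CpG, both strands added, with no normalization. Positions that are not a CpG of the reference (44938 to 61854 per library), unplaced contigs, the Y chromosome and the mitochondrion were left out here. Conversion failure and incomplete oxidation both raise a level, and the share of calls read as methylated on the mitochondrial genome, which is taken as nearly unmethylated, was 0.0549% to 1.21%, with the highest in a male oxBS library of B cells.

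Groups came from the sample labels. Calls were summed per library over 500 bp tiles and over windows of 1 kb on either side of each annotated TSS, for all protein-coding genes of GENCODE vM21. A library counted with at least 20 calls, and a feature with at least 3 CpGs and 5 such libraries in each cell type. B and T cells were compared by a quasi-binomial logistic model that also held sex and assay, an F test on the deviance and a Pearson dispersion not taken below 1. P-values were adjusted by the Benjamini-Hochberg method over all features of a kind, and a call required an adjusted p under 0.05 and a mean difference of at least 20 points. BS and oxBS were compared within a cell type with sex as covariate and at least 3 libraries per assay, and over whole genes by a test chosen after the data had been seen. limma 3.58.1 in R 4.3.3 was an alternative, on the log2 ratio of methylated to unmethylated calls with 1 added to each. Single windows were also tested by exact two-sided permutation. The models were tested on simulated data. Wilson intervals at 95% and limits for a count of 0 (3 calls of the total) cover counting error only.

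Named for each gene were its tile with the largest difference among those called, the run of called tiles around it, its longest runs and its TSS windows. Among other genes the rule named the 5 closest in their 5′ window over the 16 libraries, and per direction the 3 largest window differences of the pathway list. The members, lists and tests were chosen with earlier results of these data known, and single tiles named beyond this rule were picked after their values were seen. Alternatives covered call and CpG minimums, the size of the difference, pooled calls, dispersion, covariates, limma, each assay or sex alone, tile and window size, and each library left out. Promoters came from RefSeq (GRCm38.p6), where all 8 members matched, and other sequence from the GRCm38 reference. The software was Python 3.11.15, pandas 2.3.3, Numba 0.67.0, NumPy 2.4.6, SciPy 1.17.1 and Matplotlib 3.10.9.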

Additional observations from a re-analysis of the deposited data

Results flagged for a closer look

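The difference between BS and oxBS over a whole gene differed between T and B cells at 7 of the 8 members, by the interaction of cell type and assay in the quasi-binomial model (adjusted over all genes). The adjusted p was 0.0147 at *Lck* (13.1 points in T cells, -0.0335 in B cells), 0.0226 at *Lat* (8.94 and -2.22), 0.00205 at *Lcp2* (12.8 and -0.141) and 0.00472 at *Fyn* (9.14 and -0.266). It was 0.00242 at *Txk* (7.13 and -0.199), 0.0024 at *Prkcq* (11.6 and 0.454) and 0.0275 at *Ubash3a* (8.7 and 0.638).

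Of 64 groups of 4 to 8 libraries looked at, 3 held a library far from the others by Dixon's test, which flags about 1 in 20 groups by chance. At the tile of *Lcp2* with the largest difference, a male oxBS library of T cells (replicate 6) was at 3.7% (Wilson interval at 95% from 0.657% to 18.3%, 1 of 27 calls methylated) and the other 7 were at 0%, so the gap was 1 times the range. At the 5′ window of *Zap70*, a female oxBS library of B cells (replicate 11) was at 82.2% (77.7% to 85.9%, 331 calls) and the others between 87.4% and 91.8%, a gap of 0.542 of the range. Over the whole interval of *Zap70*, a male BS library of B cells (replicate 1) was at 87.5% (86.4% to 88.5%, 3631 calls) and the other 3 between 86.4% and 86.5%, a gap of 0.909 of the range.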

How the results depend on the processing

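Of 326 recomputed values, 291 stayed within a tolerance and 35 moved past it. A reversal of direction could be seen only in the 112 single values, and 0 of these reversed. The tolerance was 1.5 times for a count and 1 SD between replicates for a single value. Tiles lower in T cells (213) came to 117 of 495 with at least 40 calls per library (2.51% of all tiles) and 90 of 801 with BS libraries alone (0.788%). Tiles lower in B cells (16) came to 9 of 801 with BS alone (1.12%, and 0.55% of all tiles). They came to 5 of 797 with oxBS alone (0.627% and 0.492%) and 9 of 537 with tiles of 1 kb (1.68% and 1.02%). Windows lower in T cells (17) came to 10 at a limit of 30 points, 10 with BS alone and 22 with oxBS alone. They came to 10 with 500 bp on either side and 27 with 2 kb, and 1 window was lower in B cells at a limit of 10 points. The pathway gene lower in B cells (1) fell to 0 at 30 points, with oxBS alone and with windows of 2 kb. For these windows and pathway genes the share over all features was not counted, so the counts describe only the members and the list. Tiles differing between BS and oxBS in T cells (0) came to 6 with no dispersion floor, where the share of all tiles was not counted. They came to 48 with limma (0.212% of all tiles), an alternative chosen after seeing the data. Of 112 single values 12 moved, among them the largest tiles of *Zap70* (-64.7 points by BS and -82.2 by oxBS) and *Fyn* (-58.1 and -83.6). The cause of these shifts was not tested.

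With 1 library left out, tiles lower in T cells ranged from 198 to 217 (2.47% to 2.67% of all tiles). Tiles lower in B cells ranged from 16 to 17 (1.32% to 1.39%). Windows lower in T cells stayed at 17 and in B cells at 0. Pathway genes lower in T cells ranged from 19 to 20 and those lower in B cells stayed at 1. For windows and pathway genes the share over all features was not counted in these fits. Members with BS above oxBS in T cells ranged from 4 to 5 of 8 (1.77% to 2.11% of all genes), with 7 left when CpGs under 5 calls were dropped (3.18%). No paired analysis was possible because the labels name no mouse and every library has its own replicate number. Neither B with T cell libraries nor BS with oxBS libraries could be matched. Depth limits single tiles, at a median of 49 calls per library.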
